A study of Mus musculus with 4 samples.

Results

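The 37 genes described here encode the protein-folding machinery of the endoplasmic reticulum (ER) and the regulators of the unfolded protein response, and they were picked by symbol from a table of 27179 genes. They comprise 11 chaperones and co-chaperones of the ER lumen, 6 disulfide isomerases and oxidase genes, 6 sensors and transcription factors, 4 effectors of the ATF4 and CHOP branch, 6 genes of ER-associated degradation and 4 of the translocon. The RNA came from CD4+Foxp3+ regulatory T (Treg) cells, taken at steady state from C57BL/6 spleen together with peripheral lymph nodes, with 2 libraries of the P65KO genotype, described as lacking RelA, and 2 WT libraries. RelA, also called p65, belongs to the DNA-binding NF-kB subunits. The labels name neither the Rela allele, nor any promoter driving its deletion, nor the age of the mice, nor whether a library pooled animals.

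Proteins that enter the secretory pathway fold in the ER with the help of the chaperone BiP, of lectin chaperones that hold glycoproteins, and of isomerases that form disulfide bonds. When unfolded proteins accumulate, the membrane sensors ATF6, IRE1 and PERK raise the output of this machinery, slow translation and direct terminally misfolded proteins to degradation. T cells build their receptors, cytokines and checkpoint molecules on this route, and the response is known to grow with activation and secretion.

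The libraries held 4598244 and 4624230 counts in P65KO and 4513863 and 4612500 in WT. Expression is given in CPM, the count of a gene relative to the scaled total of its library, and the words rose and fell are kept for genes with an adjusted p below 0.05. That p comes from the quasi-likelihood test of edgeR with Benjamini-Hochberg adjustment over all genes tested. The markers Cd3e, Cd4 and Foxp3 were present in all 4 libraries, Foxp3 at 385 and 527 CPM in P65KO and at 376 and 370 CPM in WT. Of the 6 Treg markers listed, these 3 did not pass, Il2ra rose, and Ctla4 and Ikzf2 fell. Ikzf2 was at 128 and 166 CPM in P65KO and at 441 and 483 CPM in WT. Rela counts over the whole gene were 820 and 909 in P65KO and 875 and 806 in WT, which does not check the genotype where exons outside a deleted part remain. Xist had 0 and 2 counts in P65KO and 494 and 608 in WT, while Ddx3y had 302 and 404 counts in P65KO and 0 in both WT libraries. In the ER genes too, a difference by genotype and one that goes with these sex-linked transcripts therefore cannot be told apart. Myeloid and dendritic markers summed to 1234 and 475 CPM in P65KO and to 225 and 310 CPM in WT, and 8 of the 10 tested rose. Erythroid markers summed to 104 and 192 CPM in P65KO and to 21.2 and 27.7 CPM in WT. Effector Treg markers summed to 211 and 187 CPM in P65KO and to 1391 and 1435 CPM in WT, and all 9 fell. In bulk samples, fewer cells of a type and less RNA per cell cannot be told apart.

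Many of these genes share short promoter elements that are known to bind ATF6, XBP1 and the CCAAT-binding factor NF-Y, so promoters of some of them are shown first. RefSeq promoters of GRCm38.p6, 250 bases before to 50 bases after an annotated start, were at hand for 31 of the 37 genes. The ER stress element (ERSE, searched on both strands as CCAAT and CCACG with 9 bases of any kind between them) was found in 8 of those 31 and in 0.137% of all 27025 genes with a promoter. Stretches from 4 ERSE genes that fell (Hspa5, Calr, Hsp90b1 and Pdia6), from 2 ERSE genes that did not pass the test (Canx and Dnajc3) and from Asns, the gene with the largest decrease, follow 5′ to 3′ on the strand of the gene. Capitals mark the ERSE, or in Asns the amino acid response element.
Hspa5: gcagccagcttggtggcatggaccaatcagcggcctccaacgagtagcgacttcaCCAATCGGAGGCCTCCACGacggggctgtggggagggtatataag
Calr: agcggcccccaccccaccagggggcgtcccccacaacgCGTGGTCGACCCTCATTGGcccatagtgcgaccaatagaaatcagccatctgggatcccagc
Hsp90b1: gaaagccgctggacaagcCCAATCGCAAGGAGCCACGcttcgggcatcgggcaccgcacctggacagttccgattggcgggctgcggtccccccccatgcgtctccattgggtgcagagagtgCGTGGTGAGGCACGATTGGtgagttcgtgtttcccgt
Pdia6: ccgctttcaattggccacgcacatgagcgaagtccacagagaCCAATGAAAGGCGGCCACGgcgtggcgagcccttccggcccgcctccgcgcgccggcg
Canx: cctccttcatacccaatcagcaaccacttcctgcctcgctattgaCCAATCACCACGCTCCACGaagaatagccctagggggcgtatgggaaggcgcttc
Dnajc3: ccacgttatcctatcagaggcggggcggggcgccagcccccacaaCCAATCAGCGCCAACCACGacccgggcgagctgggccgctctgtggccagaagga
Asns: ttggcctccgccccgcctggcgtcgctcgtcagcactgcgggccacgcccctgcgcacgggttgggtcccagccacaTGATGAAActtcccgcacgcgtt
On GRCm38 these lie at chr2:34771970-34772069 on the plus strand, chr8:84847032-84847131 on the minus strand, chr10:86705515-86705674 on the minus strand and chr12:17266449-17266548 on the plus strand. The remaining stretches are chr11:50325764-50325863 on the minus strand, chr14:118937782-118937881 on the plus strand and chr6:7693210-7693309 on the minus strand.

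**Figure D1:**
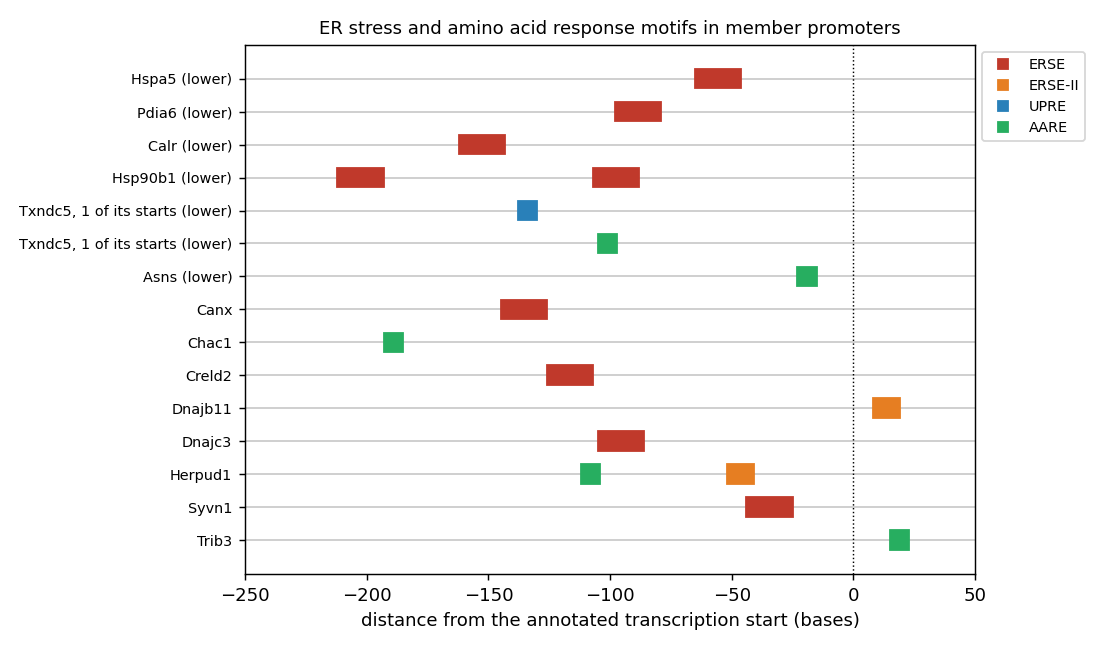
Positions of 4 motifs in the promoters of the genes that hold any of them, in bases from the annotated transcription start (horizontal axis, 250 before to 50 after), with genes that fell at the top and marked. Hsp90b1 holds 2 copies of the ERSE and Hspa5 holds 1, at -65 to -47, while Txndc5 has a line for each of the annotated starts that hold a motif.

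Counted in bases from the start, the ERSE of Hspa5 lay at -65 to -47, and Hsp90b1 carried copies at -212 to -194 and at -107 to -89, the second on the opposite strand. The other ERSE genes were Calr, Canx, Creld2, Dnajc3, Pdia6 and Syvn1. ERSE-II (ATTGG and CCACG with 1 base of any kind between them, searched on both strands) was found in Dnajb11 and Herpud1 and in 0.0444% of all genes. The unfolded protein response element (UPRE, TGACGTGG) was found in Txndc5 and in 0.714% of all genes. The amino acid response element as searched here (AARE, TGATGNAA) occurred in Asns, Chac1, Herpud1, Trib3 and Txndc5, against 4.51% of all genes, and the kappa-B motif in Creld2, Edem1 and Ero1l, against 5.14%. The short motifs at the ends of an ERSE are common, since CCACG alone was found in 35.5% and CCAAT alone in 41.1% of all genes, and they overlap every ERSE counted above. Of the 8624 tested genes with a promoter, 0.174% held an ERSE, 0.0928% an ERSE-II and 1.01% a UPRE. In these tested genes the shares were 2.66% for the AARE, 6.18% for kappa-B, 53.1% for CCACG and 43.5% for CCAAT. All motif matches given here describe letters in a window and not bound sites.

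The comparison of P65KO with WT concerns how the transcriptome of Treg cells at steady state depends on RelA, in libraries that also differ in sex-linked transcripts. In the ER genes, 9 of 36 tested fell, among them several of the most abundant chaperones and isomerases, and 0 rose. At an unadjusted p below 0.05 in the edgeR fit, 3 genes were higher (Atf4, Trib3 and Edem1), and DESeq2 and limma-voom also called 0 higher. Without P65KO replicate 1, edgeR called 1 gene higher, Trib3. Hspa5 (BiP), Calr (calreticulin), Hsp90b1 (GRP94), Sdf2l1, Pdia3, Pdia6, Txndc5, Atf6 and Asns fell, all but Asns by less than 2-fold on the fitted scale. Of the 37 genes, 36 passed the filter on low counts, and Chac1, a glutathione-degrading enzyme induced by ATF4, had 0 counts in every library. The 9 make up 25% of the 36 tested, against 20.7% of all 11172 tested genes called in either direction and 11.7% called lower by edgeR. Counting either direction, the share lies near the background, and in the lower direction it lies above it, a difference that was not tested. The median log2 difference was -0.07, against 0.00 over all genes. In 14 genes both P65KO libraries lay below both WT libraries, in 8 they lay above and in 14 the groups overlapped, while 60.5% of all tested genes did not overlap (30.9% lower and 29.7% higher in P65KO). The count called was 3 without P65KO replicate 2, 4 without WT replicate 1 and 1, Hspa5, both without WT replicate 2 and with no filter on low counts.

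Summed over the 37 genes, expression was 5547 and 5492 CPM in P65KO, against 6276 and 6407 CPM in WT. As a share of all counts this was 0.548% and 0.538% in P65KO and 0.642% and 0.647% in WT. Expression per length, taken from the deposited log2 RPKM values (scaled for gene length and library total), was led in both groups by the same genes: Calr at 291 RPKM in P65KO and 406 in WT, Pdia3 at 281 and 366, Hspa5 at 189 and 286, and P4hb, the classical protein disulfide isomerase, at 136 and 147. The sensors and stress effectors stood at the other end, with Atf6, Ern1, Trib3 and Asns each below 5 RPKM in both groups.

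**Figure D2:**
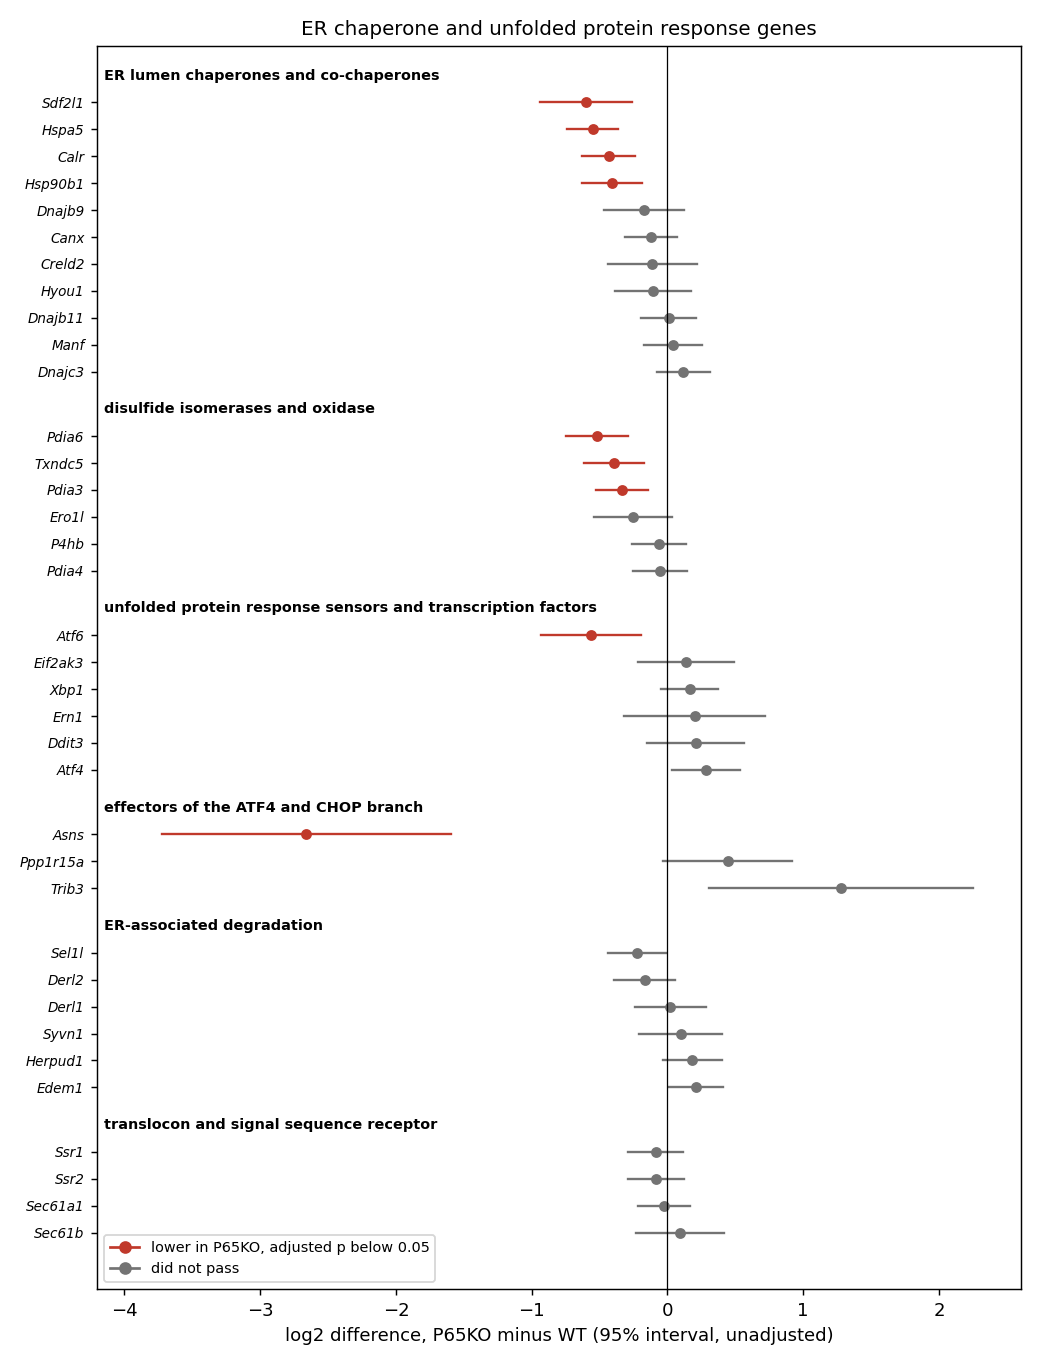
Log2 difference, P65KO minus WT, for the 36 tested genes grouped by role, with the unadjusted 95% interval of the edgeR fit as a bar and the 9 genes that fell in red. Most chaperones and isomerases lie left of 0, and ER-associated degradation and translocon genes lie close to it, from -0.22 to 0.21.

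Among the 11 luminal chaperones and co-chaperones, 4 fell, none rose and 7 did not pass. The share that fell was 36.4%, against 11.7% of all tested genes, a difference that was not tested. Hspa5 encodes BiP, the Hsp70 of the ER lumen that also holds the stress sensors inactive (Entrez 14828; GRCm38 chromosome 2, 34772090 to 34776529). It measured 501 and 502 CPM in P65KO, against 735 and 735 CPM in WT. Replicates were nearly equal and the groups lay far apart, at a log2 difference of -0.55 (SE 0.09; 95% interval -0.74 to -0.36; edgeR adjusted p = 6.72e-04), which is 1.47-fold lower. This call held under all 9 alternative settings, with log2 differences between -0.55 and -0.54.

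Calreticulin, the soluble lectin chaperone for glycoproteins, is encoded by Calr (chromosome 8, 84842088 to 84846931), which stood at 558 and 593 CPM in P65KO and at 755 and 797 CPM in WT. The log2 difference was -0.43 (SE 0.09; edgeR adjusted p = 0.00443). The call ended without P65KO replicate 1 and without WT replicate 2, in both cases at log2 -0.39, and with no filter (edgeR adjusted p = 0.0509). Canx, its membrane-bound relative, measured 354 and 375 CPM in P65KO and 395 and 397 CPM in WT. The groups of Canx did not overlap either, but at a log2 difference of -0.12 (95% interval -0.31 to 0.07) it did not pass.

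Hsp90b1 (GRP94), the Hsp90 of the ER, which folds integrins and Toll-like receptors, had 268 and 226 CPM in P65KO and 339 and 317 CPM in WT (chromosome 10, 86690841 to 86705444). Both P65KO libraries were below both WT libraries, at log2 -0.41 (SE 0.10; edgeR adjusted p = 0.0131). The call ended with no filter and without P65KO replicate 2 (log2 -0.29), WT replicate 1 (-0.36) or WT replicate 2 (-0.45). Sdf2l1, an ER-resident partner of BiP and its J-protein Dnajb11, had 27.5 and 21.6 CPM in P65KO and 35.5 and 38.9 CPM in WT. Its log2 difference of -0.60 (SE 0.16; edgeR adjusted p = 0.0166) was the largest decrease among the chaperones, yet the call ended with DESeq2, with no filter and without P65KO replicate 2 (-0.43), WT replicate 1 (-0.66) or WT replicate 2 (-0.53).

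The BiP co-chaperones and the remaining luminal factors did not pass. Dnajb11 (ERdj3) averaged 114 ± 3.41 CPM in P65KO and 113 ± 0.538 CPM in WT (SD, n = 2 each), with a 95% interval of the log2 difference from -0.19 to 0.21. Dnajc3 (p58IPK) was at 212 and 199 CPM in P65KO and at 191 and 188 CPM in WT, the P65KO values being higher without overlap but not past the threshold (log2 0.12, interval -0.08 to 0.31). Dnajb9 (ERdj4), a target of spliced XBP1, measured 44.0 and 38.9 CPM in P65KO and 42.4 and 51.1 CPM in WT, so its groups overlapped. Hyou1 (GRP170), the nucleotide exchange factor of BiP, and the stress-inducible Manf and Creld2 also overlapped between groups and lay at log2 -0.11, 0.04 and -0.11. The intervals of Dnajb9, -0.47 to 0.12, and Hyou1, -0.39 to 0.17, include decreases of the size seen in Calr for Dnajb9 and in Pdia3 for Hyou1.

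**Figure D3:**
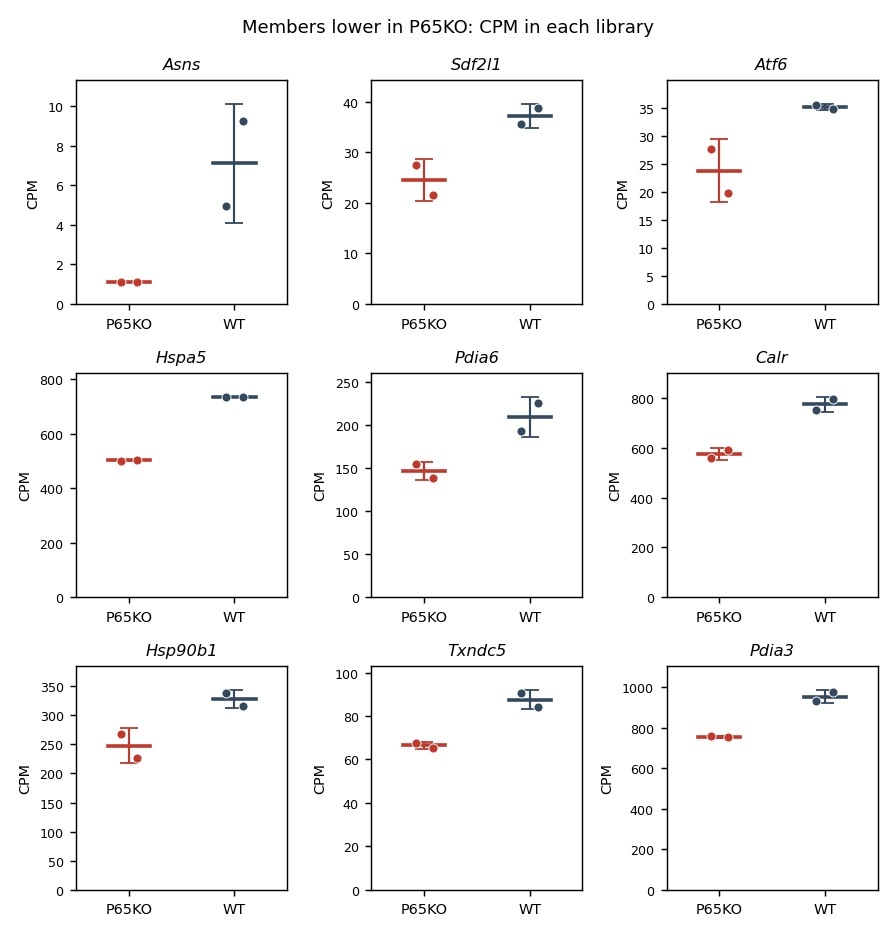
CPM in each library (points) for the 9 genes that fell, P65KO in red and WT in dark blue, with the group mean as a thick line and 1 SD as the error bar (n = 2 libraries each). In each panel both P65KO points lie below both WT points, by the widest relative margin in Asns, at about 1.10 CPM in P65KO and 4.98 and 9.23 CPM in WT.

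Of the 6 disulfide isomerases and oxidase genes, 3 fell and 3 did not pass, and all 6 had a negative log2 difference (median -0.30). Over all tested genes 11.7% fell and 49.8% had a negative log2 difference, and no test compared these shares. Pdia6 (P5; chromosome 12, 17266589 to 17284785) measured 154 and 139 CPM in P65KO and 193 and 226 CPM in WT. It was 1.43-fold lower (log2 -0.52, SE 0.10; edgeR adjusted p = 0.00379), and the call was lost under no filter and also without P65KO replicate 2 (log2 -0.44) or WT replicate 2 (-0.40). Pdia3 (ERp57), the isomerase that works with calreticulin and calnexin and that belongs to the MHC class I loading complex, had 757 and 752 CPM in P65KO and 929 and 976 CPM in WT. Its decrease was 1.26-fold (log2 -0.34, SE 0.09; edgeR adjusted p = 0.0161). Txndc5 (ERp46) stood at 67.8 and 65.4 CPM in P65KO and at 90.7 and 84.4 CPM in WT, a log2 difference of -0.39 (SE 0.10; edgeR adjusted p = 0.0160). The calls of Pdia3 and Txndc5 ended with no filter and whichever library was left out. With P65KO replicate 1 or 2 left out the log2 difference was -0.34 or -0.33 for Pdia3 and -0.42 or -0.37 for Txndc5. With WT replicate 1 or 2 left out it was -0.37 or -0.30 for Pdia3 and -0.34 or -0.44 for Txndc5. With DESeq2 the call of Txndc5 ended too.

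The remaining members of this group did not pass. Ero1l, the oxidase that recharges the isomerases, was at 31.5 and 32.5 CPM in P65KO and at 39.0 and 37.4 CPM in WT. These values did not overlap, but the interval of the log2 difference ran from -0.54 to 0.03. P4hb had 359 and 342 CPM in P65KO and 348 and 384 CPM in WT, and Pdia4 (ERp72) had 156 and 164 CPM in P65KO and 163 and 170 CPM in WT. Both overlapped between groups, and their intervals, -0.26 to 0.14 and -0.25 to 0.14, leave out a decrease of the size seen in Pdia6.

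Of the 6 sensors and transcription factors, Atf6 fell and the other 5 had positive log2 differences that did not pass. Over all tested genes, 49.8% had a negative log2 difference. Of these 6 genes 16.7% were called, all lower, against 20.7% of all tested genes called in either direction and 11.7% called lower. No test compared these shares. Atf6, the membrane sensor that is cut in the Golgi to release a transcription factor for ERSE promoters (chromosome 1, 170704457 to 170868585), had 126 and 90 counts in P65KO and 164 and 162 in WT. This corresponds to 27.7 and 19.9 CPM in P65KO and 35.5 and 34.8 CPM in WT, a log2 difference of -0.56 (SE 0.17; edgeR adjusted p = 0.0335). The P65KO replicates were further apart than the WT replicates, and without P65KO replicate 2 the difference was -0.34 and did not pass (edgeR adjusted p = 0.255). It also did not pass without WT replicate 1 (-0.55) or WT replicate 2 (-0.57), with DESeq2 or with no filter.

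Ern1 encodes IRE1, the sensor kinase and nuclease that splices Xbp1, and measured 11.7 and 10.4 CPM in P65KO and 9.74 and 9.45 CPM in WT (log2 0.20, SE 0.24; edgeR adjusted p = 0.618). Xbp1 itself stood at 139 and 133 CPM in P65KO and at 127 and 116 CPM in WT (log2 0.16, SE 0.10; edgeR adjusted p = 0.265). Neither passed although the groups did not overlap, which held, with P65KO higher, for 29.7% of all tested genes. Gene counts do not separate spliced from unspliced Xbp1. Eif2ak3 (PERK), the kinase that slows translation, was at 26.6 and 27.4 CPM in P65KO and at 27.3 and 21.9 CPM in WT, with overlap (log2 0.14, SE 0.16; edgeR adjusted p = 0.615). Atf4, the transcription factor favoured when PERK is active, had 60.9 and 55.2 CPM in P65KO and 49.4 and 46.2 CPM in WT. At log2 0.28 (SE 0.11; edgeR adjusted p = 0.106) it did not pass. Ddit3 (CHOP), its partner in prolonged stress, measured 22.2 and 24.1 CPM in P65KO and 19.3 and 20.8 CPM in WT, likewise without overlap and without passing (log2 0.21, SE 0.16; edgeR adjusted p = 0.421).

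**Figure D4:**
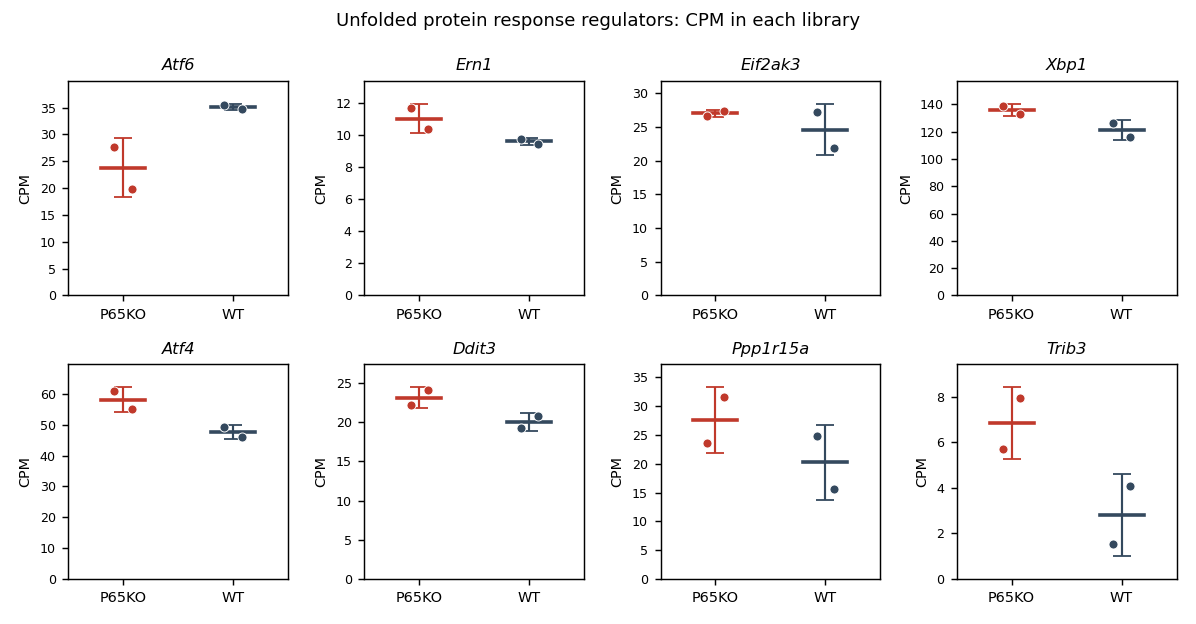
CPM in each library (points) for 8 regulators of the unfolded protein response, P65KO in red and WT in dark blue, with mean (thick line) and 1 SD (error bar, n = 2 libraries each). Atf6 is lower in both P65KO libraries, whereas Atf4, Xbp1, Ddit3, Ern1 and Trib3 have P65KO points above both WT points without passing the test, and Eif2ak3 and Ppp1r15a overlap.

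Of the 4 effectors of the ATF4 and CHOP branch, Asns fell, Trib3 and Ppp1r15a did not pass and Chac1 had no counts. Asns, the asparagine synthetase (Entrez 27053; chromosome 6, 7675165 to 7693209), had 5 and 5 counts in P65KO and 23 and 43 in WT, or 1.10 and 1.10 CPM in P65KO and 4.98 and 9.23 CPM in WT. The fitted log2 difference was -2.66 (SE 0.49; edgeR adjusted p = 0.00206), the largest among the 36 genes. From the summed counts, 10 in P65KO and 66 in WT, WT was 6.67-fold higher with an exact 95% interval of 3.41 to 14.6 for counting error. The call ended without WT replicate 2 (log2 -2.14; edgeR adjusted p = 0.0580) and with no filter (edgeR adjusted p = 0.0566). The AARE of Asns, in capitals in the stretch above, lay at -23 to -16 from the start.

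Trib3, a pseudokinase induced by ATF4 and CHOP, had 26 and 36 counts in P65KO and 7 and 19 in WT, without overlap. Its log2 difference of 1.28 did not pass (SE 0.45; edgeR adjusted p = 0.0625), though without P65KO replicate 1 it did (edgeR adjusted p = 0.0471). The log2 difference was 0.74 without WT replicate 1 and 2.16 without WT replicate 2. Ppp1r15a (GADD34), which ends the translational block, had 23.5 and 31.6 CPM in P65KO and 24.9 and 15.7 CPM in WT, with overlap and log2 0.44 (interval -0.03 to 0.92).

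Among genes of ER-associated degradation, 0 of 6 passed in edgeR, limma-voom or DESeq2, while Sel1l and Edem1 had unadjusted p-values of 0.0412 and 0.0427 in the edgeR quasi-likelihood model fitted across all genes. That model called 20.7% of all tested genes, and no test compared these shares. Sel1l, the adaptor of the Hrd1 ubiquitin ligase, stood at 86.0 and 81.7 CPM in P65KO and at 99.6 and 96.4 CPM in WT. Edem1, a lectin that hands misfolded glycoproteins to that complex, lay on the other side at 276 and 306 CPM in P65KO and 250 and 254 CPM in WT. Herpud1, a stress-induced scaffold of the same complex, was at 155 and 136 CPM in P65KO and at 126 and 131 CPM in WT. The ligase gene Syvn1 and Derl1 overlapped between groups, and Derl2 lay at 63.6 and 60.3 CPM in P65KO and at 69.5 and 69.8 CPM in WT.

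None of the 4 translocon genes passed in edgeR, limma-voom or DESeq2, and none had an unadjusted p below 0.05 in the edgeR fit. Over all tested genes 20.7% were called by edgeR, and no test set so small a group against that share. Sec61a1, the pore of the protein-conducting channel, averaged 315 ± 13.1 CPM in P65KO and 320 ± 6.36 CPM in WT (SD, n = 2 each), and the 95% interval of its log2 difference was -0.22 to 0.17. Sec61b, a small subunit of that channel, averaged 63.3 ± 13.5 CPM in P65KO and 59.4 ± 8.03 CPM in WT, with overlap. Ssr1 and Ssr2, subunits of the translocon-associated protein complex, had intervals of -0.29 to 0.12 and -0.29 to 0.12.

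Set against the promoters, 4 of the 8 ERSE genes fell and 4 did not pass, where 11.7% of all tested genes fell. Pdia3, Txndc5, Sdf2l1 and Asns fell with no ERSE in their window, and no promoter was at hand for Atf6. Hspa5, Pdia6, Calr and Hsp90b1 lay between log2 -0.55 and -0.41, and Canx, Creld2, Syvn1 and Dnajc3 between -0.12 and 0.12. Of the 7 other tested genes with an ERSE in their promoter, Adcy3 fell, Spats2l rose and 5 did not pass. The ERSE-II genes Dnajb11 and Herpud1 did not pass. Of the 6 other tested genes with an ERSE-II in their promoter, Lgalsl and Nucb1 fell, Rbm39 rose and 3 did not pass. No test was made of a link between a motif and the difference in expression.

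Other secretory pathway genes, stress response regulators and amino acid targets of ATF4 were read from 7 further lists of 136 genes, of which 127 were tested. Here 17 fell, 6 rose and 104 did not pass, which is 18.1% called against the 20.7% background, with a median log2 difference of -0.05. None of these 23 calls passed under all 9 alternative settings, and the number called was 4 with DESeq2 and 1 with no filter. Leaving out P65KO replicate 1 or 2 gave 10 or 8 calls, and leaving out WT replicate 1 or 2 gave 4 or 2. The values below are therefore those of the fit with all 4 libraries.

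In the list of other oxidoreductases and folding factors, 4 of 18 tested genes fell and none rose. That is 22.2% called, near the 20.7% of all tested genes called in either direction, of which 11.7% were lower. The J-protein Dnajc1 averaged 33.6 ± 0.0584 CPM in P65KO and 47.1 ± 0.132 CPM in WT (SD, n = 2 each), and the ER peroxiredoxin Prdx4 31.4 ± 5.36 CPM in P65KO and 43.1 ± 3.40 CPM in WT. Tmx4, a membrane thioredoxin, and Dnajc10 (ERdj5), a reductase that works with BiP, fell by 0.43 and 0.30 on the log2 scale. Of 18 tested genes of translocation and signal peptide cleavage, 2 fell and 1 rose, which is 16.7% called against the same 20.7%. Sec11c, a catalytic subunit of the signal peptidase, was at 76.5 ± 12.6 CPM in P65KO and 125 ± 15.4 CPM in WT, and Srpr, the signal recognition particle receptor, fell by 0.37 on the log2 scale. Sec63, a J-protein of the translocon, rose to 66.7 ± 1.21 CPM in P65KO, against 46.3 ± 0.635 CPM in WT.

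Among 16 genes of N-glycosylation, Rpn1, a subunit of the oligosaccharyltransferase, and Mogs, the first glucosidase of glycan trimming, fell by 0.28 and 0.30 on the log2 scale. In the same list Magt1 and Stt3b, which belong to one form of that transferase, rose by log2 0.47 and 0.39. Of 24 further degradation genes, Aup1 alone passed, at log2 -0.33 (edgeR adjusted p = 0.0229), which is 4.17% called. In ER to Golgi transport 3 of 19 fell, namely the cargo receptor Lman1, the coat subunit Sec24d and the retrieval receptor Kdelr2, at log2 -0.48, -0.59 and -0.38. The coat subunit Sec24a rose at log2 0.44, and the share called was 21.1%, near that of all tested genes.

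Of 19 other stress regulators, 3 fell and 1 rose, which is 21.1% called, near the 20.7% of all tested genes. Creb3l2, an ER membrane transcription factor related to ATF6, was at 9.04 ± 2.83 CPM in P65KO and 18.9 ± 3.01 CPM in WT (SD, n = 2 each). Eif2ak2 (PKR), the RNA-sensing kinase of eIF2alpha, was at 20.4 ± 3.84 CPM in P65KO and 34.9 ± 6.92 CPM in WT, and Map3k5 (ASK1), a stress kinase downstream of IRE1, fell by 0.45 on the log2 scale. Nfe2l2 (NRF2), the regulator of the antioxidant response, rose to 68.9 ± 2.45 CPM in P65KO, against 49.2 ± 3.65 CPM in WT. Among 13 tested amino acid targets of ATF4, 2 fell and 1 rose, and 9 had a positive log2 difference (median 0.16). That is 23.1% called, near the 20.7% of all tested genes, and 49.8% of all tested genes had a negative log2 difference. Slc7a5, a chain of the large neutral amino acid transporter, rose to 110 ± 15.4 CPM in P65KO, against 71.1 ± 3.23 CPM in WT, and Psat1, a serine synthesis enzyme, fell by 0.36 on the log2 scale. Stc2 (stanniocalcin-2) had 1 and 0 counts in P65KO and 12 and 13 in WT, a ratio of WT over P65KO of 25.3 with an exact 95% interval of 4.14 to 1037 for counting error. Its fitted log2 difference of -4.31 depends on the prior count.

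**Figure D5:**
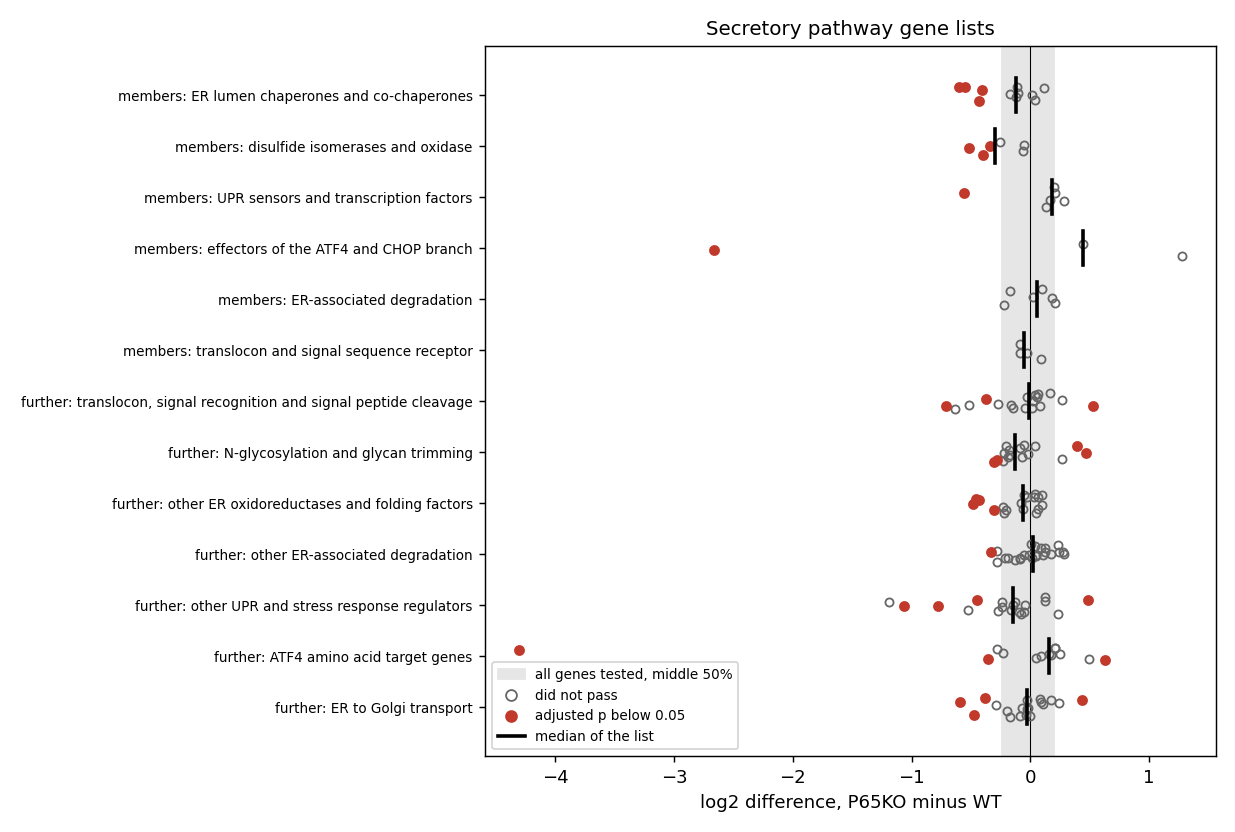
Log2 difference, P65KO minus WT, of each tested gene in the 6 role groups and the 7 further lists (points, red where adjusted p was below 0.05), with the median of each list as a black bar and the middle 50% of all 11172 tested genes as a grey band. The genes furthest to the left are Stc2 and Asns, which rest on few counts in P65KO, and the red points of the chaperone and isomerase groups all lie left of 0.

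Other transcripts moved with the genotype in the same libraries. Among markers of plasma cells, which are rich in ER chaperones, Sdc1, Mzb1, Tnfrsf17, Derl3 and Fkbp11 had counts too low to test, Pou2af1 fell, and Jchain was at 174 and 50.6 CPM in P65KO and 42.7 and 60.1 CPM in WT. Their sum was 202 and 64.7 CPM in P65KO and 74.3 and 84.6 CPM in WT. B cell markers summed to 24.9 and 15.2 CPM in P65KO and to 50.2 and 53.2 CPM in WT, with Pax5 and Ebf1 at 0 counts in all 4 libraries. Cycling genes summed to 206 and 124 CPM in P65KO and to 273 and 312 CPM in WT, and 6 of the 8 fell. The part of these cell types, and of the effector and cycling transcripts, in the ER gene values was not tested. A difference by sex could not be told apart from genotype.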

How the data were processed

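RNA sequencing libraries from CD4+Foxp3+ Treg cells, 2 P65KO and 2 WT, were grouped and numbered by their titles. The labels do not tell whether replicates are different animals. The p-values set the group difference against the spread between libraries, estimated in part across genes, and that spread may be technical only. Subread, featureCounts, limma and the build GRCm38 (mm10) appear in the submitters' processing notes. Their versions and the annotation and strand setting were not given in the sources, so overlapping and antisense genes are uncertain. The authors deposited raw counts for 27179 Entrez genes and a log2 RPKM value per gene and library. The deposited log2 values equal the count plus 0.5 per gene length and library total, with lengths whole within 0.01 bases for 27178 genes. The 571 genes without a symbol held 0.453% to 0.562% of counts and were kept.

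Genes were filtered with filterByExpr, scaled by TMM and tested with edgeR 4.0.16 (R 4.3.3; glmQLFTest, two-sided), with Benjamini-Hochberg adjustment over 11172 genes. The SE is the log2 difference over the square root of F. On simulated counts for those 11172 genes, 58, 71 and 71 genes were changed 1.5-fold, 2-fold and 4-fold. The same fit called 43.1%, 70.4% and 95.8% of them. Of its 149 calls 6 were false, and with no change simulated it made 0. Far fewer genes were changed there than the 2310 called in the data, so these shares need not carry over. DESeq2 1.42.0, limma-voom (limma 3.58.1), RLE scaling, no filter, a replicate block and leaving out each library were the alternatives. Library totals make 3 counts worth 0.649 to 0.665 CPM. Intervals from counts cover counting error only. Coordinates and promoters are RefSeq GRCm38.p6, matched by Entrez identifier. The 14 genes given in full are the 9 members that passed and 7 sensors and regulators, Hspa5 and Atf6 counting under both. Up to 4 genes that passed are named per further list. The members, lists and marker sets were chosen with earlier results of these data known.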

Additional observations from a re-analysis of the deposited data

How the results depend on the processing

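The number of ER and unfolded protein response genes called was 9, all lower. It was 6 with DESeq2, 9 with RLE scaling, 9 with limma-voom and 1 with no filter on low counts, and 1 to 7 when each library was left out in turn. The 14 genes described in full gave 9 calls, against 1 with no filter and 1 to 6 with a library left out. All 9 genes that fell kept a negative log2 difference under all 9 alternatives, and Hspa5 alone passed under each of them. Over all genes, the 2310 calls became 1318 with DESeq2, 771 with no filter and 916 to 1673 with a library left out. The 23 calls in the further lists became 4 with DESeq2, 1 with no filter and 2 to 10 with a library left out. With no filter more genes were tested (16183), and with a library left out the lone sample of its group is assumed to vary like the other group. The cause of the other shifts was not tested. Leaving out libraries turned the sign of 10 genes that did not pass. Their log2 differences then ranged from -0.021 to 0.040 for Dnajb11, -0.035 to 0.12 for Manf, -0.24 to 0.0089 for Creld2, -0.31 to 0.13 for Hyou1 and -0.13 to 0.013 for P4hb, and from -0.010 to 0.30 for Eif2ak3, -0.051 to 0.27 for Syvn1, -0.11 to 0.17 for Derl1, -0.069 to 0.016 for Sec61a1 and -0.15 to 0.29 for Sec61b. The libraries share replicate numbers only. Deviations of replicate 1 from the group means correlated at -0.137 between P65KO and WT, and with the replicate block 10 ER genes were called, Trib3 as the added one (higher, edgeR adjusted p = 0.0162), 2319 over all genes and 20 in the further lists. At this depth, a gene such as Asns rests on 10 counts in P65KO. In the simulation, where far fewer genes changed than were called in the data, 43.1% of 1.5-fold differences were recovered.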
